A study of Mus musculus with 6 samples.

Results

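The genes described here carry glucose into the cell, break it down to pyruvate, exchange pyruvate with lactate, admit pyruvate to the mitochondrion, and store or release glycogen. They were taken as a list of 36 gene symbols and matched by name in a table of read counts for 54532 genes, where they occupied 37 rows because Aldoa has 2 annotated loci. All 37 rows passed the filter on low counts. The counts come from bulk sequencing of polyadenylated RNA from primary cortical astrocytes of mouse pups, grown in culture. Knockout cultures were grown from GFAP-Cre::NEOf/f pups, where the promoter of the astrocyte filament gene Gfap drives a Cre recombinase that acts on a floxed Neo1 gene, and control cultures from pups that the series' design text calls littermates, with 3 libraries in each group. The genotype of the controls is not labelled further, with Neoff in their library names and GFAPNeoff in those of the knockouts, and no strain, age or treatment is given for either group. The titles number the libraries as biological replicates but do not say which pups, litters or cultures they came from. The p-values therefore set the difference between the groups only against the spread of these libraries, part of which may be technical.

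Glycolysis phosphorylates glucose, splits it into triose phosphates and oxidises these to pyruvate. Pyruvate is either reduced to lactate and exported or carried into mitochondria, where the pyruvate dehydrogenase complex turns it into acetyl-CoA under the control of inhibitory kinases. Astrocytes are known for high glycolytic flux, for releasing lactate, and for holding most of the glycogen of the brain. Many genes of glycolysis are textbook targets of HIF-1, one of the hypoxia-inducible factors (HIF) named in the title of the study.

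Short stretches of promoter are shown first, because HIF complexes bind DNA through a core of 5 letters that can be searched for. The windows are the 250 bases before a start site in RefSeq on GRCm38.p6, written 5′ to 3′ along the gene, and capitals mark the letters ACGTG or, read on the other strand, CACGT. The run CACGTG holds both and counts as 2 overlapping matches. Slc2a1 and Pfkp are shown as genes that fell in the knockout cultures, Pfkfb3 as one that rose, and Ldha and Pgk1 as genes that did not pass the test.
Slc2a1 (chr4:119108495-119108744, plus strand): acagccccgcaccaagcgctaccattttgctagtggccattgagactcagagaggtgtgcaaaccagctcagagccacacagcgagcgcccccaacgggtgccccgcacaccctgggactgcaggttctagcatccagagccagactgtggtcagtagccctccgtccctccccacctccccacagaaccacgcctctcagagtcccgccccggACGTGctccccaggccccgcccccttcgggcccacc
Pfkp (chr13:6648772-6649021, minus strand): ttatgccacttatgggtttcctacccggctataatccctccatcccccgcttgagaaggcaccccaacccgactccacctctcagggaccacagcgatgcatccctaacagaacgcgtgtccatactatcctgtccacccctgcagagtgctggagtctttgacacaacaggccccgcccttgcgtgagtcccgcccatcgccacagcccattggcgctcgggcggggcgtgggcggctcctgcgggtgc
Pfkfb3 (chr2:11553930-11554179, minus strand): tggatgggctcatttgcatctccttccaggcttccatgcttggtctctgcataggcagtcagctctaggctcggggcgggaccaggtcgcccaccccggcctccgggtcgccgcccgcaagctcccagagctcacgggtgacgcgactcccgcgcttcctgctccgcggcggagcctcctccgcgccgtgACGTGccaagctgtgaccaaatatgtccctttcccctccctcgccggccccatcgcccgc
Ldha (chr7:46845554-46845803, plus strand): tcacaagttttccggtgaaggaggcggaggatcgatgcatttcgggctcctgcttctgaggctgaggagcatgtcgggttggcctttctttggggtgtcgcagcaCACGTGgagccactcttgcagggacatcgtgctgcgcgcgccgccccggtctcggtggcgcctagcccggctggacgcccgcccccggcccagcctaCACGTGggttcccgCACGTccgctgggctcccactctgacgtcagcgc
Pgk1 (chrX:106186850-106187099, plus strand): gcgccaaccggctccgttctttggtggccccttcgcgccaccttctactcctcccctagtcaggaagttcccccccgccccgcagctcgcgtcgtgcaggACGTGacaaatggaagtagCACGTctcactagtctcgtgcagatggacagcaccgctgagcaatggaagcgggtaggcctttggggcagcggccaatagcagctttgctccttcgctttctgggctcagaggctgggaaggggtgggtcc
The Ldha window shown held 5 matches of ACGTG on either strand, the Pgk1 window 2, the Slc2a1 and Pfkfb3 windows 1 each and the Pfkp window 0. A second window of Ldha, not shown, held 0 and a second one of Pfkfb3 held 2. Of the 36 genes, 35 had 51 windows in the table. ACGTG was in 22 of these windows (43.1%), against 5444 of 32851 windows of all genes (16.6%). Counted by gene, 2 of 6 genes that rose had a match in any window, as did 8 of 16 that fell and 8 of 13 that did not pass the test, in all 18 of 35 (51.4%), against 18.5% of all genes. Slc2a3, which also fell, is not in the table. The letters GCGTG, which differ only in the first letter and are not marked above, were in 27 of the 51 windows (52.9%). They were in 28.2% of all windows. Of the windows shown, that of Pfkp held 3, that of Slc2a1 1 and those of Pfkfb3, Ldha and Pgk1 0. By gene, GCGTG was found for 5 of 6 that rose, 11 of 16 that fell and 8 of 13 that did not pass. In all that was 24 of 35 (68.6%), against 30.9% of all genes. These shares were not matched for expression, base content or the number of windows per gene, and why they differ was not tested. A match is a run of letters and not a binding site, and binding was not measured.

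Neo1 (ENSMUSG00000032340, chr9:58874687-59036441, minus strand), which encodes the receptor neogenin, was measured first as a check of the labels. It stood at 189, 189 and 198 CPM in the control libraries and 101, 106 and 105 CPM in the knockout libraries, and its groups did not overlap (log2 fold change −0.89, SE 0.05, adjusted p = 5.8e-11, Benjamini-Hochberg, quasi-likelihood test of edgeR, as for all adjusted p-values here). The count pools all exons and which exon is deleted is not in the labels. Levels are counts scaled to library size (CPM, after TMM normalisation), errors are SDs of 3 libraries and fold changes are knockout over control. The words rose and fell are kept for genes with an adjusted p under 0.05 over all 18530 genes tested. Library totals ran from 60819277 to 106081115 counts. On the second principal component knockout replicate 2 lay away from replicates 1 and 3, and results that turn on it are given without it.

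More of the 37 rows fell than rose: 17 were lower, 6 higher and 14 not past the threshold. The called share was 62.2%, where 38.3% of all genes tested were called, 19.6% higher and 18.7% lower. Among genes with a mean of at least 10 CPM, where tests are more precise, 16 of 32 rows fell and 6 rose, against 26.3% lower and 27.3% higher (53.6% in all) of 9842 genes of that level. The median log2 fold change of the 37 rows was −0.15, and that of all genes was −0.0018. Control and knockout libraries did not overlap in 25 rows, against 49.3% of all genes tested. Most differences were small. Called and lower by at least 1.5-fold were 4 of the 37 rows, beside 5.42% of all genes tested. These 4 were Slc2a3, Aldoc, Pdk4 and Pfkp. Called and higher by that much were 0 of the 37, beside 7.47%. Of called genes alone, 4 of the 17 that fell passed that fold, where 1005 of 3466 did over all genes. None of the 6 that rose did, where 1384 of 3627 did. Scaling by total counts alone gave 5 rows higher and 19 lower, while the split over all genes moved from 3627 higher and 3466 lower to 2921 and 4499.

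**Figure D1:**
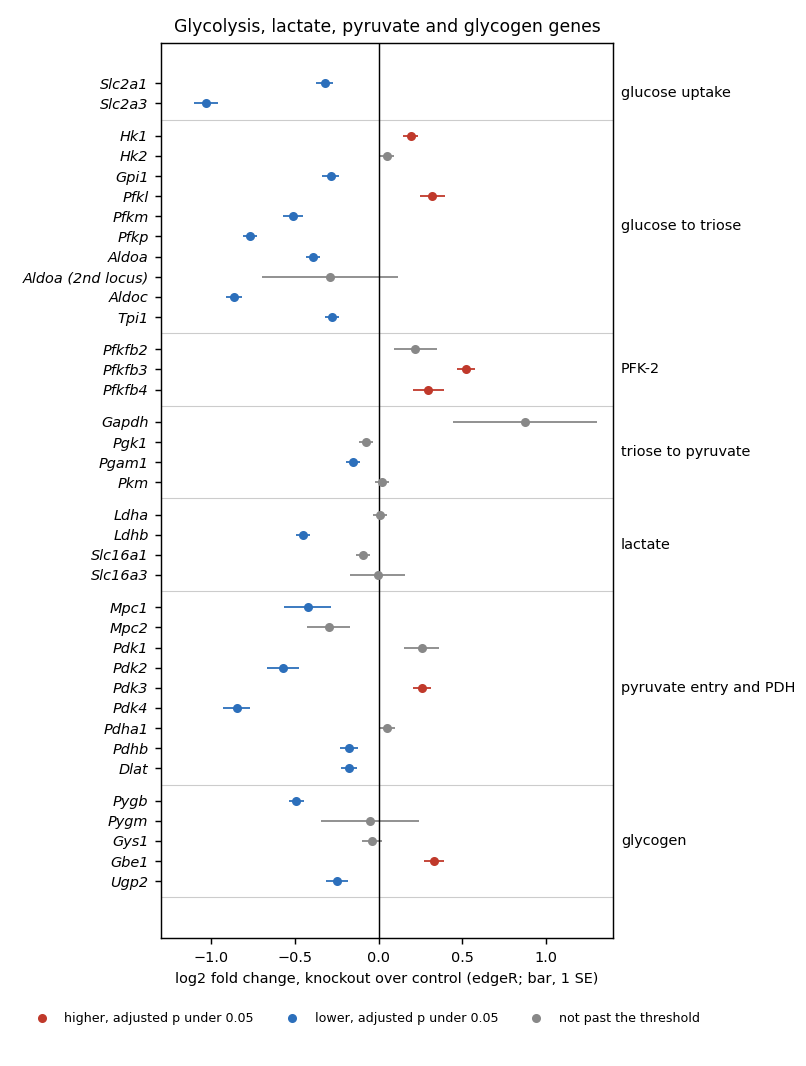
Log2 fold change of each gene, knockout over control (x axis), with bars of 1 SE, grouped by role (y axis); colour gives the call at an adjusted p under 0.05. Points left of 0 fill the uptake group and most of the steps from glucose to triose, and Slc2a3 lies farthest left at −1.03.

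Both glucose transporter genes fell. Slc2a3 encodes GLUT3, a high-affinity transporter best known from neurons, and Slc2a1 encodes GLUT1, the main glucose transporter of astrocytes and of the blood-brain barrier. Slc2a3 (ENSMUSG00000003153, chr6:122727809-122801640, minus strand) was at 47.6, 49.9 and 52.7 CPM in the control libraries and 26.4, 24.6 and 22.5 CPM in the knockout libraries. Every knockout library lay far below every control library, and the mean fell to 0.489 of the control level (log2 fold change −1.03, SE 0.07, adjusted p = 2.4e-09). Slc2a1 (ENSMUSG00000028645, chr4:119108711-119137983, plus strand) was at 136, 139.9 and 127 CPM in the control libraries and 106, 109 and 107 CPM in the knockout libraries. Here too all knockout libraries lay below all controls, though by less (log2 fold change −0.32, SE 0.05, adjusted p = 4.3e-05). Per exon length, Slc2a1 remained the more abundant in both groups, at 38.4 ± 1.84 RPKM, which is CPM per kilobase of exon, in control and 30.7 ± 0.469 RPKM in knockout cultures, with Slc2a3 at 6.91 ± 0.348 and 3.38 ± 0.268 RPKM. In bulk RNA, fewer cells of a type and less RNA per cell cannot be told apart.

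In the steps from glucose to triose phosphate, 6 of 10 rows fell and 2 rose, with a median log2 fold change of −0.29. Of all genes tested 18.7% fell and 19.6% rose, or 26.3% and 27.3% at a mean of at least 10 CPM. The 2 hexokinases trap glucose by phosphorylation. Hk1, the housekeeping form (ENSMUSG00000037012, chr10:62268855-62379908, minus strand), was at 167, 167 and 163 CPM in the control libraries and 196, 182 and 192 CPM in the knockout libraries. Its knockout libraries were all higher, by a small amount (log2 fold change 0.19, SE 0.05, adjusted p = 0.0024). Hk2, the inducible form, was at 181, 175 and 181 CPM in the control libraries and 187, 182 and 186 CPM in the knockout libraries. Its groups did not overlap either, but the difference did not pass the test (log2 fold change 0.05, SE 0.04, adjusted p = 0.42), with a 95% interval from −0.04 to 0.14 and a value of −0.02 under total-count scaling.

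Gpi1, the isomerase that follows (ENSMUSG00000036427, chr7:34201330-34230336, minus strand), was at 342, 332 and 299.9 CPM in the control libraries and 263, 277 and 259 CPM in the knockout libraries. All 3 knockout libraries were lower (log2 fold change −0.29, SE 0.05, adjusted p = 2.1e-04). Of its exon bases, 11.5% overlap the antisense gene Gm26762, and since the strand setting is not given among the sources used, reads of the pair cannot be told apart.

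The 3 genes of phosphofructokinase-1, the committing step of glycolysis, moved in different directions. Pfkp, the platelet isoform (ENSMUSG00000021196, chr13:6579768-6648777, minus strand), was at 222, 218 and 224 CPM in the control libraries and 132, 128 and 130.1 CPM in the knockout libraries. The libraries of each group lay close together and far from the other group, and the mean fell to 0.587 of the control level (log2 fold change −0.77, SE 0.04, adjusted p = 1.6e-10). Pfkm, the muscle isoform (ENSMUSG00000033065, chr15:98092589-98132451, plus strand), was at 93.1, 103 and 89.4 CPM in the control libraries and 66.7, 69.5 and 63.9 CPM in the knockout libraries. It also fell without overlap (log2 fold change −0.51, SE 0.06, adjusted p = 1.9e-06). Pfkl, the liver isoform (ENSMUSG00000020277, chr10:77986947-78010083, minus strand), went the other way, at 73.4, 61.9 and 64.2 CPM in the control libraries and 89.2, 74.4 and 85.5 CPM in the knockout libraries. The lowest knockout library, replicate 2, was just above the highest control library, replicate 1, and the rise was called (log2 fold change 0.32, SE 0.07, adjusted p = 0.0023). Pfkp shares 5.58% of its exon bases with the antisense gene Pitrm1 and Pfkm 10.2% with Gm26513 on its own strand.

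Aldolase splits fructose bisphosphate into 2 trioses. Aldoc, the brain isoform and a long-used astrocyte marker (ENSMUSG00000017390, chr11:78322968-78327781, plus strand), was at 103, 106 and 101 CPM in the control libraries and 57.1, 57.1 and 56.0 CPM in the knockout libraries. The knockout libraries lay close together, and the mean fell to 0.549 of the control level (log2 fold change −0.86, SE 0.05, adjusted p = 2.5e-10). Aldoa, the general isoform (ENSMUSG00000030695, chr7:126795234-126800751, minus strand), was at 721, 751 and 696 CPM in the control libraries and 555, 538 and 559 CPM in the knockout libraries. It fell by less (log2 fold change −0.39, SE 0.04, adjusted p = 6.7e-07), again without overlap. The second locus of that name (ENSMUSG00000114515, chr7:126800790-126809108, minus strand) stayed under 1 CPM in every library and was not called (log2 fold change −0.29, SE 0.41, adjusted p = 0.63). Tpi1, which interconverts the 2 trioses (ENSMUSG00000023456, chr6:124810586-124814296, minus strand), was at 336, 319.9 and 312 CPM in the control libraries and 263, 272 and 262 CPM in the knockout libraries. Its groups did not overlap and it fell (log2 fold change −0.28, SE 0.04, adjusted p = 5.6e-05).

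The genes of the bifunctional enzymes that make and remove fructose 2,6-bisphosphate, the main activator of phosphofructokinase-1, were higher where they passed the test, in 2 of 3. The share of all genes tested that rose was 19.6%, and 27.3% at a mean of at least 10 CPM. Pfkfb3, the form with the highest kinase activity (ENSMUSG00000026773, chr2:11471433-11554077, minus strand), was at 72.2, 67.9 and 75.8 CPM in the control libraries and 102, 106 and 101 CPM in the knockout libraries. All knockout libraries were above all controls, a 1.44-fold rise (log2 fold change 0.52, SE 0.05, adjusted p = 4.6e-07). Pfkfb4 (ENSMUSG00000025648, chr9:108991778-109032228, plus strand) was at 11.5, 10.8 and 11.7 CPM in the control libraries and 13.9, 13.3 and 14.5 CPM in the knockout libraries. It rose without overlap (log2 fold change 0.30, SE 0.09, adjusted p = 0.017), but the call was lost under total-count scaling (adjusted p = 0.055) and without control replicate 2 (0.079), knockout replicate 1 (0.051) or knockout replicate 3 (0.070). Pfkfb2, the heart form, was at 6.96, 6.34 and 7.68 CPM in the control libraries and 7.33, 9.28 and 7.88 CPM in the knockout libraries, with overlapping groups and no call (log2 fold change 0.22, SE 0.13, adjusted p = 0.20). Pfkfb2 shares 17.4% of its exon bases with Gm29427 on its own strand.

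**Figure D2:**
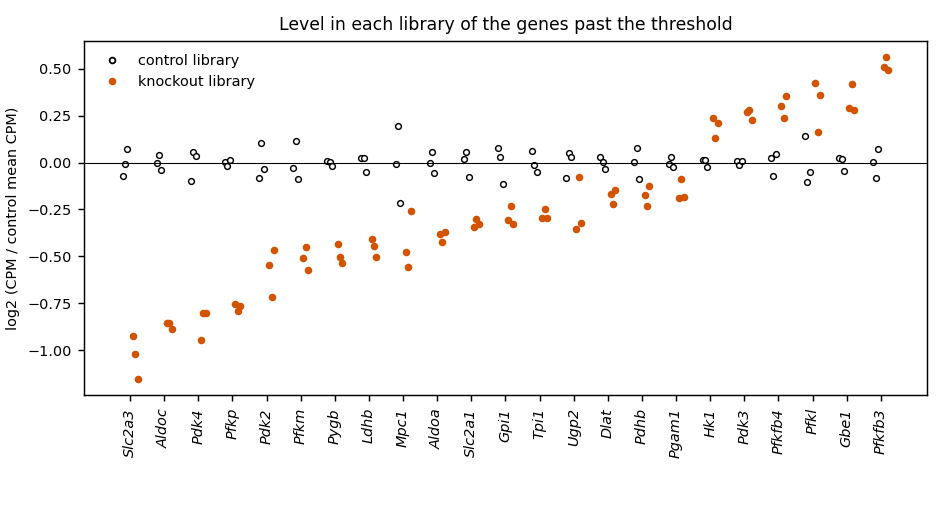
Level of each called gene in each library (y axis, log2 of CPM over the control mean), ordered by fold change along the x axis; open circles are control and filled circles knockout libraries. Circles of the 2 groups are apart for 22 of the 23 genes, the exception being Ugp2.

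In the second stage, from triose to pyruvate, 1 of 4 genes fell and 3 were not called. Of all genes with a mean of at least 10 CPM 26.3% fell. Pgam1, phosphoglycerate mutase (ENSMUSG00000011752, chr19:41911923-41918660, plus strand), was at 344, 353 and 339 CPM in the control libraries and 303, 325 and 305 CPM in the knockout libraries. It fell slightly, without overlap (log2 fold change −0.15, SE 0.04, adjusted p = 0.0093), and without knockout replicate 1 the adjusted p was 0.056. Pgk1, the first step that yields ATP, was at 757, 742 and 709 CPM in the control libraries and 687, 737 and 673 CPM in the knockout libraries. Knockout replicate 2 lay among the controls and the other 2 below them (log2 fold change −0.07, SE 0.04, adjusted p = 0.21, 95% interval −0.17 to 0.02). Without that library the log2 fold change was −0.11 (adjusted p = 0.019), and under total-count scaling −0.14 (0.015).

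Pkm encodes pyruvate kinase, the last step, and had the highest mean CPM of the 37 rows in both groups. It was at 1286, 1239 and 1165 CPM in the control libraries and 1262, 1266 and 1218 CPM in the knockout libraries. The groups overlapped and the difference was not called (log2 fold change 0.02, SE 0.04, adjusted p = 0.73), with a 95% interval from −0.07 to 0.11 and a value of −0.04 under total-count scaling. Of the longest Pkm transcript 65.5% aligns to other annotated genes at 95% identity or more, and of Pgk1 68.8%, so both levels are uncertain. Pkm also shares 15.3% of its exon bases with Gm49759 on its own strand, which may be part of that 65.5%. With reads of copies that do not overlap their exons added, neither Pkm nor Pgk1 was called. Copies also cover 43.1% of the Pgam1 transcript, 27.3% of Gpi1 and 19.3% of Tpi1, and each of these remained lower with copies added.

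Gapdh, glyceraldehyde-3-phosphate dehydrogenase, is often used as a reference gene, yet it was counted here at a low level that varied between libraries. It was at 11.0, 17.5 and 13.2 CPM in the control libraries and 31.7, 13.3 and 31.5 CPM in the knockout libraries. Knockout replicates 1 and 3 were high, while knockout replicate 2 lay among the controls (log2 fold change 0.88, SE 0.43, adjusted p = 0.20, 95% interval −0.29 to 2.04). Without knockout replicate 2 the log2 fold change was 1.18 (adjusted p = 0.0024). The call also passed with limma-voom (0.024) and without the robust option (0.010). A search found 144 annotated near-identical copies of the Gapdh transcript. When counts of the 98 longer ones were added, an alternative chosen after seeing the data, the level was 68.9, 86.3 and 79.4 CPM in control and 84.1, 66.5 and 87.6 CPM in knockout libraries. The groups then overlapped, with a log2 fold change of 0.02 (adjusted p = 0.91). Per exon length, Gapdh itself was at 3.37 ± 0.797 RPKM in control cultures, against 328 ± 10.8 RPKM for Pgk1, the next enzyme. How reads with several matches were counted is not given among the sources used, so what the Gapdh row measures is uncertain.

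**Figure D3:**
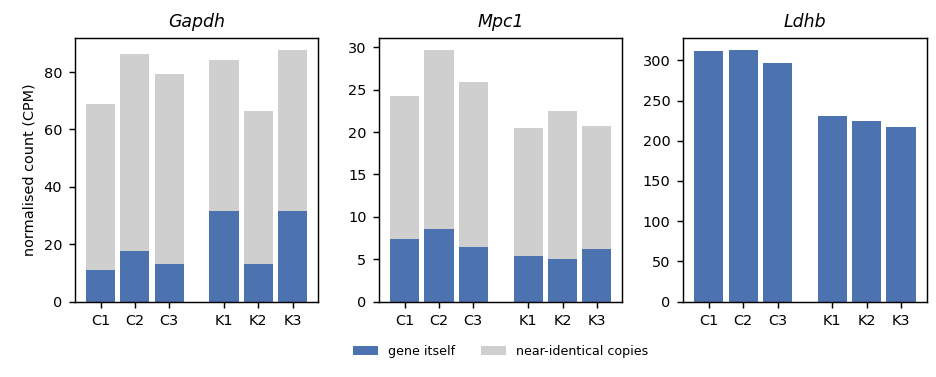
Normalised count (y axis, CPM) of Gapdh, Mpc1 and Ldhb in each library (x axis; C, control; K, knockout), with the gene itself in blue and its near-identical copies stacked in grey. Copies hold most of the Gapdh and Mpc1 totals and almost none of the Ldhb total.

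Of the lactate genes, 1 of 4 fell, where 18.7% of all genes tested fell, and 26.3% of those with a mean of at least 10 CPM. Lactate dehydrogenase is a tetramer of A chains, which are associated with lactate production, and B chains, which are associated with its use. Ldhb (ENSMUSG00000030246, chr6:142490249-142507957, minus strand) was at 311, 312 and 296 CPM in the control libraries and 231, 225 and 217 CPM in the knockout libraries. All knockout libraries were lower, with a wide gap between the groups (log2 fold change −0.45, SE 0.04, adjusted p = 2.4e-07). Of its transcript, 76.8% aligns to the pseudogene Gm5514, which took under 1 CPM in every library, and with those reads added Ldhb remained lower. Ldha was at 604, 604 and 553 CPM in the control libraries and 596, 596 and 582 CPM in the knockout libraries. Its groups overlapped and its difference was not called (log2 fold change 0.01, SE 0.04, adjusted p = 0.88). The 95% interval ran from −0.08 to 0.10, and the value was −0.05 under total-count scaling. Copies cover 55.0% of its transcript, and with their reads added it was still not called.

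Slc16a1 encodes MCT1, a monocarboxylate transporter through which astrocytes release lactate, and was at 157, 152 and 157 CPM in the control libraries and 147, 143 and 146 CPM in the knockout libraries. All knockout libraries were lower, but the difference missed the threshold (log2 fold change −0.09, SE 0.04, adjusted p = 0.11, 95% interval −0.19 to 0.00). Scaled by total counts it was −0.16 (adjusted p = 0.0081). Slc16a3 encodes MCT4, a low-affinity lactate exporter, and was at 6.32 ± 0.219 CPM in the controls and 6.29 ± 1.61 CPM in the knockouts. Its groups overlapped (log2 fold change −0.01, SE 0.16, adjusted p = 0.99, 95% interval −0.35 to 0.34), and the sign of its near-zero difference depended on the library left out.

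At the entry of pyruvate into mitochondrial metabolism, 5 of 9 genes fell and 1 rose, beside 18.7% and 19.6% of all genes tested. At a mean of at least 10 CPM these shares were 26.3% and 27.3%. Mpc1 and Mpc2 encode the 2 subunits of the mitochondrial pyruvate carrier. Mpc1 (ENSMUSG00000023861, chr17:8282904-8297661, plus strand) was at 7.40, 8.51 and 6.41 CPM in the control libraries and 5.34, 5.06 and 6.21 CPM in the knockout libraries. The groups did not overlap and it fell (log2 fold change −0.42, SE 0.14, adjusted p = 0.023). The call was lost without control replicate 1 (adjusted p = 0.062), control replicate 2 (0.13), knockout replicate 1 (0.067) or knockout replicate 2 (0.057). Its copies hold more reads than Mpc1 does, and with them added the log2 fold change was −0.33 (adjusted p = 0.0039). Mpc1 also shares 23.1% of its exon bases with the antisense gene 4930506C21Rik. Mpc2 was at 30.9, 33.8 and 30.8 CPM in the control libraries and 29.8, 19.7 and 28.0 CPM in the knockout libraries. Knockout replicate 2 was far below the rest, the groups did not overlap, and the difference was not called (log2 fold change −0.30, SE 0.13, adjusted p = 0.10). It was called by DESeq2 (adjusted p = 0.034), by limma-voom (0.048), with no filter (4.8e-04) and without knockout replicate 1 (0.014), while without knockout replicate 2 the log2 fold change was −0.14 and not called.

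Of 3 subunits of the pyruvate dehydrogenase complex in the list, the genes of 2 fell slightly, while Dld and Pdhx, 2 further subunits read with the other pyruvate genes below, were not called. Pdhb, the E1 beta subunit (ENSMUSG00000021748, chr14:8165996-8173025, minus strand), was at 80.4, 84.8 and 75.7 CPM in the control libraries and 71.1, 68.5 and 73.6 CPM in the knockout libraries. All knockout libraries were lower (log2 fold change −0.18, SE 0.06, adjusted p = 0.018), with the call lost without control replicate 1 (adjusted p = 0.058) or control replicate 2 (0.11). Dlat, the E2 core (ENSMUSG00000000168, chr9:50634633-50659780, minus strand), was at 97.2, 95.7 and 93.0 CPM in the control libraries and 84.9, 81.9 and 86.0 CPM in the knockout libraries. It fell without overlap (log2 fold change −0.18, SE 0.05, adjusted p = 0.0078). Pdha1, the E1 alpha subunit that the kinases phosphorylate, was at 135, 131 and 139 CPM in the control libraries and 142, 143 and 135 CPM in the knockout libraries. Its groups overlapped (log2 fold change 0.05, SE 0.05, adjusted p = 0.45, 95% interval −0.05 to 0.15), and its value was −0.02 under total-count scaling. Pdha1 shares 16.1% of its exon bases with Map3k15 on the opposite strand.

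The 4 kinases that inhibit this complex did not move together. Pdk4, the isoform known for its response to fasting and fatty acids (ENSMUSG00000019577, chr6:5483351-5496309, minus strand), was at 23.7, 26.4 and 26.0 CPM in the control libraries and 13.2, 14.6 and 14.6 CPM in the knockout libraries. It fell to 0.556 of the control level, with every knockout library well below every control (log2 fold change −0.85, SE 0.08, adjusted p = 1.9e-07). Pdk2, the most widely expressed isoform (ENSMUSG00000038967, chr11:95026258-95041354, minus strand), was at 16.1, 18.3 and 16.6 CPM in the control libraries and 11.7, 10.4 and 12.3 CPM in the knockout libraries. It fell as well, without overlap (log2 fold change −0.57, SE 0.10, adjusted p = 1.3e-04). Pdk3 (ENSMUSG00000035232, chrX:93764607-93832201, minus strand) was higher, at 43.0, 42.4 and 43.1 CPM in the control libraries and 51.6, 52.0 and 50.2 CPM in the knockout libraries. The libraries of each group lay close together and the rise was called (log2 fold change 0.26, SE 0.06, adjusted p = 0.0012). Pdk1, a known HIF-1 target, was at 15.3, 12.8 and 14.5 CPM in the control libraries and 14.8, 19.4 and 16.9 CPM in the knockout libraries. Knockout replicate 1 lay among the controls, and the difference missed the threshold (log2 fold change 0.26, SE 0.10, adjusted p = 0.061, 95% interval 0.04 to 0.48). It passed with no filter (adjusted p = 0.041), with a filter of 1 CPM in 3 libraries (0.043) and without knockout replicate 1 (0.018).

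Among the 5 glycogen genes, 2 fell and 1 rose, beside 18.7% and 19.6% of all genes tested. At a mean of at least 10 CPM these shares were 26.3% and 27.3%. Pygb, brain glycogen phosphorylase, which releases glucose units from glycogen (ENSMUSG00000033059, chr2:150786735-150831758, plus strand), was at 227, 226 and 222 CPM in the control libraries and 166, 158 and 155 CPM in the knockout libraries. The groups lay far apart (log2 fold change −0.49, SE 0.04, adjusted p = 9.0e-08). Pygm, the muscle phosphorylase that is also known from astrocytes, was near the lower limit of measurement at 1.24 ± 0.280 CPM in the controls and 1.19 ± 0.166 CPM in the knockouts. Its groups overlapped (log2 fold change −0.05, SE 0.29, adjusted p = 0.91, 95% interval −0.67 to 0.56), and its sign changed without control replicate 2 or knockout replicate 2.

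Gbe1, the branching enzyme (ENSMUSG00000022707, chr16:70313949-70569716, plus strand), was at 41.8, 41.7 and 39.8 CPM in the control libraries and 50.3, 55.0 and 49.9 CPM in the knockout libraries. All knockout libraries were higher, a 1.26-fold rise (log2 fold change 0.33, SE 0.06, adjusted p = 2.5e-04). Ugp2, which makes the UDP-glucose used for glycogen (ENSMUSG00000001891, chr11:21321138-21371201, minus strand), was at 138, 151 and 149 CPM in the control libraries and 114, 138 and 117 CPM in the knockout libraries. It fell (log2 fold change −0.25, SE 0.07, adjusted p = 0.0070), although knockout replicate 2 was level with the lowest control library. Gys1, glycogen synthase, was at 47.0, 48.8 and 44.9 CPM in the control libraries and 45.5, 44.5 and 46.8 CPM in the knockout libraries, with overlapping groups and no call (log2 fold change −0.04, SE 0.06, adjusted p = 0.65, 95% interval −0.16 to 0.08). It shares 6.47% of its exon bases with the antisense gene Ruvbl2.

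Ratios of isoforms within a library do not depend on scaling between libraries, so the balance of each family was compared as log2 ratios per exon length. Of 14 pairs, 10 did not overlap between the groups. Of single genes 49.3% did not overlap, and no such share was computed for other pairs of genes. With 3 libraries against 3, the exact two-sided permutation test cannot go below 0.1, which these 10 reached (0.14 after Benjamini-Hochberg adjustment over the pairs), so the values are descriptions. The ratio of Pfkp to Pfkl was 1.51, 1.76 and 1.74 in control and 0.735, 0.857 and 0.758 in knockout libraries, a difference of −1.09 in log2. Every control library held more Pfkp than Pfkl per exon length and every knockout library less. The ratio of Pfkm to Pfkl differed by −0.83. The ratio of Ldhb to Ldha was 1.09, 1.09 and 1.13 in control and 0.816, 0.796 and 0.784 in knockout libraries, a difference of −0.46. Differences were −0.71 for Slc2a3 to Slc2a1, −0.47 for Aldoc to Aldoa, −1.10 for Pdk4 to Pdk1, −0.83 for Pdk2 to Pdk1 and −0.14 for Hk2 to Hk1. Pfkfb2 and Pfkfb4 were lower relative to Pfkfb3, by −0.30 and −0.22. The pairs that overlapped were Slc16a3 to Slc16a1, Pdk3 to Pdk1, Pygm to Pygb and Mpc2 to Mpc1, with exact permutation p-values from 0.3 to 1.

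As shares of a family total in RPKM, Pfkl made up 18.1% ± 1.70 of phosphofructokinase-1 in control and 29.5% ± 2.32 in knockout cultures, while the total went from 54.96 ± 1.69 to 42.1 ± 0.914 RPKM. Pfkp went from 30.1% ± 1.28 to 23.0% ± 0.285 and Pfkm from 51.8% ± 2.48 to 47.5% ± 2.33. Within lactate dehydrogenase, Ldha went from 47.6% ± 0.515 to 55.6% ± 0.502 of a total that went from 373 ± 14.7 to 321 ± 6.92 RPKM. Among the pyruvate dehydrogenase kinases, Pdk3 went from 53.7% ± 1.18 to 67.1% ± 1.29 of a total that moved little, from 31.2 ± 0.478 to 29.8 ± 0.366 RPKM, and Pdk4 went from 23.2% ± 0.980 to 13.5% ± 0.639. Which isoform leads depends on the length used: with the longest transcript, Ldha was already the larger share in control cultures, at 57.9% ± 0.504, and Hk1 rather than Hk2 led the hexokinases, at 54.5% ± 0.704. The length cancels in the log2 differences between genotypes.

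**Figure D4:**
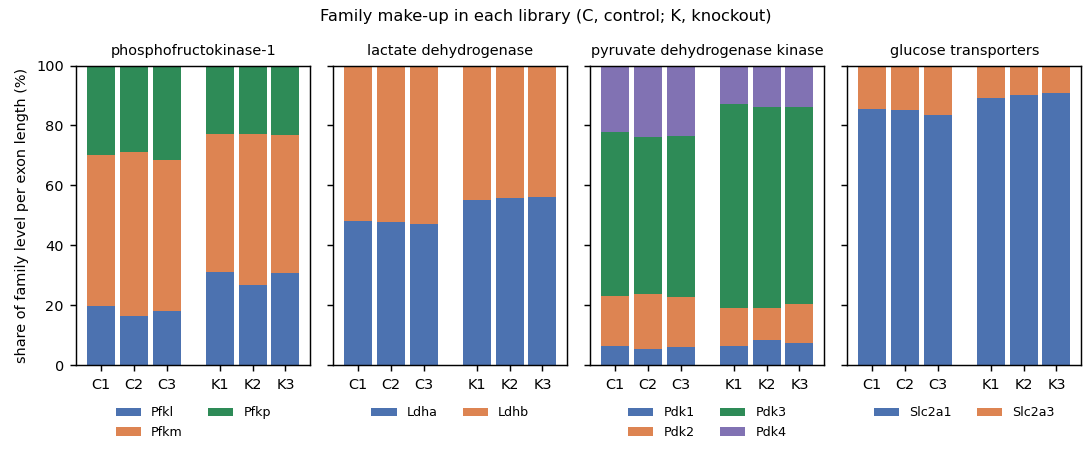
Share of each isoform in its family's level per exon length (y axis, percent) in each library (x axis; C, control; K, knockout) for 4 families. The Pfkl share is larger in every knockout library, as are those of Ldha, Pdk3 and Slc2a1.

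Other genes of these pathways were read from lists of 92 names, of which 78 genes were tested. Of them 24 were lower and 14 higher, with a median log2 fold change of −0.09, beside the 18.7% lower and 19.6% higher of all genes tested. Shares of all genes with a mean of at least 10 CPM were 26.3% lower and 27.3% higher, and the lists below are short, so their counts are descriptions. Among 7 other tested genes of the Slc2a transporter family 1 rose and 2 fell. Slc2a6, a transporter of lysosomal membranes, went up from 34.9 ± 1.84 to 54.0 ± 5.52 CPM (log2 fold change 0.63, SE 0.07, adjusted p = 2.3e-06). Slc2a8 and Slc2a13 fell, with log2 fold changes of −0.52 and −0.34. Of 17 other enzymes of glycolysis and gluconeogenesis, 5 fell and 1 rose. Gpd1, which makes glycerol 3-phosphate in the cytosol, fell from 7.69 ± 0.306 to 1.99 ± 0.864 CPM (log2 fold change −1.94, SE 0.25, adjusted p = 2.9e-05), and Gpd2, its mitochondrial partner in the glycerol phosphate shuttle, from 101 ± 5.14 to 84.4 ± 1.12 CPM (−0.26). Bpgm, which makes 2,3-bisphosphoglycerate, rose from 68.2 ± 1.89 to 80.5 ± 1.79 CPM (0.24). Eno1b fell from 147 ± 9.38 to 16.1 ± 1.12 CPM, but it is a near-identical copy of the enolase gene Eno1, which stood at 968 ± 43.4 CPM in the controls and 867 ± 17.7 CPM in the knockouts (log2 fold change −0.16). Reads could be split between these 2 genes, so both are uncertain. Eno1 is named outside the rule for naming genes, after its values were seen.

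Of 6 other lactate and monocarboxylate genes, 1 rose and 1 fell. Slc16a4, an MCT family member, fell from 4.15 ± 0.326 to 1.44 ± 0.245 CPM (log2 fold change −1.53, SE 0.20, adjusted p = 7.6e-06), and Emb, a chaperone of monocarboxylate transporters, rose from 17.7 ± 0.882 to 22.9 ± 1.74 CPM (0.37). Of 6 other genes of pyruvate metabolism, Pcx fell, and Pdpr and Pdp2 rose. Pcx encodes pyruvate carboxylase, the anaplerotic enzyme that in brain is found in astrocytes, and went from 139.7 ± 2.46 to 112 ± 1.25 CPM (log2 fold change −0.32, SE 0.04, adjusted p = 2.0e-05). Pdp2 is a phosphatase that reactivates pyruvate dehydrogenase and Pdpr a regulator of that step, with log2 fold changes of 0.43 and 0.41.

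The glycogen list had 9 genes lower and 2 higher of 23. Phkg1, a catalytic subunit of phosphorylase kinase, fell from 2.63 ± 0.399 to 1.02 ± 0.144 CPM (log2 fold change −1.36, SE 0.24, adjusted p = 2.1e-04). Pgm1, a phosphoglucomutase gene, fell from 52.0 ± 2.59 to 42.8 ± 2.00 CPM, and Ppp1r3d, which targets protein phosphatase 1 to glycogen, from 6.07 ± 0.471 to 4.07 ± 0.432 CPM. Gsk3a, a kinase that inhibits glycogen synthase, fell from 62.9 ± 4.09 to 51.8 ± 4.33 CPM. In log2 these 3 falls were −0.28, −0.58 and −0.28.

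The pentose phosphate pathway, which branches off at glucose 6-phosphate and supplies NADPH and ribose, had 3 genes higher and 3 lower of 8. Of all genes tested 38.3% were called, and 53.6% of those with a mean of at least 10 CPM. H6pd, which runs the first steps in the endoplasmic reticulum, rose from 42.1 ± 2.15 to 64.4 ± 1.22 CPM (log2 fold change 0.61, SE 0.06, adjusted p = 1.5e-07). Pgd, the NADPH-yielding enzyme of the cytosolic branch, rose from 245 ± 11.5 to 321 ± 9.67 CPM (log2 fold change 0.39, SE 0.05, adjusted p = 2.5e-06), and the epimerase gene Rpe from 30.5 ± 1.58 to 41.8 ± 1.73 CPM (0.45). Tkt, the transketolase that returns sugars to glycolysis, fell from 250.3 ± 7.10 to 200.2 ± 9.39 CPM (log2 fold change −0.32, SE 0.05, adjusted p = 2.5e-05). Exons of Gpd1, Gpd2, Emb, Pgm1, Gsk3a, Phkg1 and Rpe overlap a gene on the opposite strand by 7.44% to 28.3%.

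Of 11 tested transcriptional regulators of glycolysis, 4 were higher and 3 lower. The called share was 38.3% of all genes tested and 53.6% of those with a mean of at least 10 CPM. Hif1a and Epas1, the oxygen-regulated HIF subunits, were among the higher genes. Hif1a was at 221, 233 and 238 CPM in the control libraries and 265, 289 and 274 CPM in the knockout libraries and Epas1 at 142, 138 and 147 and at 182, 179 and 181 CPM. Neither overlapped between groups, with log2 fold changes of 0.26 and 0.35. Hif1a overlaps the antisense gene Gm15283. Txnip, an arrestin-like protein that restrains glucose uptake and is induced by glucose, fell from 143 ± 3.37 to 92.6 ± 6.11 CPM (log2 fold change −0.63, SE 0.05, adjusted p = 4.0e-08). Of its exon bases, 19.4% overlap the antisense gene Gm15441. Myc, an activator of glycolytic genes, fell from 76.6 ± 0.700 to 65.3 ± 4.41 CPM (−0.23). RNA alone was measured, not protein or metabolites.

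The astrocyte label was checked against 9 markers, all of which were detected. Of them 5 fell and 2 rose, with summed levels from 2653 to 2728 CPM in control and from 2442 to 2573 CPM in knockout libraries. Gfap, whose promoter drives Cre, fell from 946 ± 20.8 to 431 ± 3.85 CPM. Higher instead were Slc1a2, a glutamate transporter, which went from 133 ± 8.41 to 371 ± 16.6 CPM, and Aqp4, a water channel, from 605 ± 35.5 to 879 ± 31.2 CPM. Markers of other cells also differed between the genotypes in part. Of all genes tested 38.3% were called, and 53.6% of those with a mean of at least 10 CPM. The marker lists are short, so their counts are descriptions. Microglia and macrophage markers fell in 9 of 12 and rose in 1, with sums from 85.8 to 90.1 CPM in control and from 51.0 to 56.0 CPM in knockout libraries, while P2ry12 was under 1 CPM throughout. Fibroblast and meningeal markers rose in 7 of 8 and fell in 1, with sums from 3376 to 3573 CPM in control and from 4870.5 to 5479.5 CPM in knockout libraries. Endothelial markers rose in 3 of 5 tested, with sums from 82.2 to 87.7 and from 138.7 to 140.3 CPM, though the defining gene Cldn5 was at or near 0 in all libraries. Pericyte and smooth muscle markers split 2 up and 2 down, with sums from 3991 to 4172 and from 2984 to 3022 CPM, mostly Acta2.

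Oligodendrocyte lineage markers fell in 4 of 6 tested, with sums from 173 to 186 CPM in control and from 103 to 129.5 CPM in knockout libraries, and Mog was near 0. Markers of ependyma and choroid plexus fell in 4 of 5, from sums of 94.8 to 100.4 to sums of 40.9 to 47.4 CPM, with Ttr near 0 in the knockout libraries. Neuronal markers fell in 1 of 7, near the 18.7% lower of all genes tested, with sums from 119 to 136 and from 128 to 133 CPM. Genes of dividing cells, a state in which glycolysis is known to be high, fell in 5 of 7, with sums from 589.5 to 616 and from 507 to 529 CPM. The part of these cell populations in the differences of the metabolic genes was not tested.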

How the data were processed

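Counts per gene were deposited by the authors as whole numbers for 54532 Ensembl identifiers in 6 libraries, with no normalisation. Per the submitters' processing notes, the tools were HISAT2 2.2.1 and featureCounts 2.0.6 and the build was GRCm38 (mm10). RNA was extracted with Trizol and libraries used poly-T beads, per the labels' protocols. The strand setting, the annotation release and the handling of reads with several matches are not given among the sources used. Columns were matched to samples by the library names in the labels. The 36 genes, the pathway and marker lists and the tests were chosen with earlier results of these data known.

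The test was edgeR's (version 4.0.16, R 4.3.3; TMM normalisation, filterByExpr with minimum count 10 and minimum total 15, glmQLFit with the robust option, glmQLFTest on genotype alone, two-sided, Benjamini-Hochberg over 18530 genes holding 99.96% of counts, threshold 0.05), after a check on simulated counts. SEs come from the test statistic. The 95% intervals come from the SE and the total degrees of freedom of the test, which add prior to residual ones. RPKM divides CPM by the union of exons in GENCODE M21, which held 54495 of the identifiers. Near-identical copies were sought with BLAST 2.17.0 (95% identity or more over 100 bases or more) and added, in an alternative chosen after the data were seen, where they covered at least 10% of the transcript. Promoter windows came from RefSeq. Each of the 36 genes was named, with values per library for called genes whose groups do not overlap, and up to 4 called genes with the smallest p from each pathway list. No libraries were duplicates: within a group, chi-square per gene was between 5.97 and 21.8. Alternatives were other scalings, DESeq2 1.42.0, limma-voom (limma 3.58.1), other filters, leaving out each library, a replicate block, no robust option, a threshold of 0.01 and a minimum fold of 1.5.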

Additional observations from a re-analysis of the deposited data

How the results depend on the processing

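Of the 23 called genes, 19 kept their call under all 17 alternatives besides the minimum fold of 1.5, the exceptions being Pfkfb4, Pgam1, Mpc1 and Pdhb. Against a minimum fold of 1.5, 0 of the 37 rows were called higher and 4 lower, and of the pathway genes 0 and 4, where 666 of all genes were higher and 348 lower. The median log2 fold change of the 37 rows was −0.22 under total-count scaling and −0.12 with a filter of 1 CPM in 3 libraries, which tests fewer genes, and ran from −0.18 to −0.11 as each library was left out. Genes that were not called changed sign as follows. Ldha was −0.0060 with upper-quartile normalisation and −0.055 under total-count scaling, where Hk2 was −0.016, Pkm −0.043 and Pdha1 −0.015. Slc16a3 was 0.0013 with the 1 CPM filter, and ran from −0.16 (without knockout replicate 3) to 0.19 (without knockout replicate 2) as libraries were left out. Over the same settings Pygm ran from −0.18 to 0.14, Pkm from −0.020 to 0.051 and Ldha from −0.035 to 0.028. The cause was not tested. The replicate numbers did not pair the libraries (correlations of same-numbered deviations 0.015, 0.019 and −0.0082). A replicate block gave 6 rows higher and 17 lower of the 37, and 3501 higher and 3383 lower of all genes. The 10 isozyme ratios whose groups did not overlap kept their direction with each library left out, while Mpc2 to Mpc1, Pdk3 to Pdk1 and Slc16a3 to Slc16a1 did not. Depth limits genes near 1 CPM, such as Pygm and the second Aldoa locus, whose 95% intervals span both directions.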

Other observations

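Pathways that branch from or follow glycolysis were read from lists written after the data had been seen, so they are given as counts and values only. Of 16 genes of the citric acid cycle, 11 fell and 1 rose, with a median log2 fold change of −0.17, beside the 18.7% lower of all genes tested and the 26.3% lower of those with a mean of at least 10 CPM. Idh3a, the catalytic subunit of isocitrate dehydrogenase, fell from 128 ± 3.84 to 98.7 ± 2.96 CPM (log2 fold change −0.38, SE 0.05, adjusted p = 5.7e-06, by the same edgeR fit), and Suclg1, a subunit of succinyl-CoA synthetase, from 83.7 ± 4.72 to 66.6 ± 0.962 CPM (−0.33). The exception was Sucla2, the ATP-forming beta subunit of that enzyme, which rose from 67.4 ± 0.948 to 78.1 ± 4.76 CPM (0.21). Of 6 genes of the malate-aspartate shuttle, which moves the reducing equivalents of glycolysis into mitochondria, 4 fell and 0 rose. Mdh1, the cytosolic malate dehydrogenase, went from 254 ± 12.8 to 207 ± 4.85 CPM (−0.30) and the aspartate-glutamate carrier gene Slc25a13 from 24.3 ± 1.48 to 18.9 ± 0.241 CPM (−0.36).

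The hexosamine pathway, which turns fructose 6-phosphate into the sugar donor for protein glycosylation, had 3 genes higher and 0 lower of 6, where 27.3% of all genes with a mean of at least 10 CPM were higher. One of the 6, Gnpnat1, was near 0 CPM. Gfpt1, its first enzyme, rose from 135 ± 8.04 to 169 ± 1.79 CPM (0.32), and Pgm3, a later enzyme, from 26.0 ± 1.98 to 33.4 ± 0.976 CPM (0.36). Pgm3 shares 28.3% of its exon bases with Dop1a on the opposite strand, and a near-identical copy covers 38.5% of its transcript. Ogt, which attaches the product to proteins, rose from 72.2 ± 1.57 to 110.1 ± 5.32 CPM (log2 fold change 0.61, SE 0.05, adjusted p = 4.1e-08, by the same edgeR fit). Of 5 genes of serine synthesis from 3-phosphoglycerate, 1 fell, near the 18.7% lower of all genes tested. At a mean of at least 10 CPM that share was 26.3%. The gene was Phgdh, which went from 243 ± 6.14 to 210.1 ± 6.44 CPM (−0.21). Phgdh has 11 near-identical copies that cover 89.5% of its transcript, so its level is uncertain.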
